A study of Homo sapiens with 3 samples.

Results

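The primary cilium genes described here are 45 genes of 5 groups: the BBSome and its helpers, the intraflagellar transport complexes IFT-B and IFT-A, the motors, and the transition zone. They were chosen by symbol, as a list of known cilium components, with earlier results of these data known. All 45 were found among the 26209 gene symbols of the expression tables. The tables hold 3 polyadenylated RNA libraries of HEK293 cells, an adherent line derived from human embryonic kidney. Libraries of 2 genome-edited cell clones, 114 and 174, have the genotype partial KANK1-KO, made with Cas9 and a guide placed next to the first start codon of KANK1, delivered on a plasmid by lipid transfection. The third library is the unedited control, labelled as having no treatment. All 3 share the line and the growth medium with fetal bovine serum, and each clone gave 1 library, so the only spread that can be measured is that between the 2 clones. The promoter that drives Cas9 is not given in the sources used here, and the edited alleles and the cilia themselves were not analysed here. The study's title concerns reduced KANK1 dose and the centrosome, the organelle from which a cilium grows.

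A primary cilium is a single antenna of microtubules that grows from the mother centriole of many resting cells and carries receptors for signals such as Hedgehog. Its parts are carried in by IFT-B trains driven by kinesin and carried back by IFT-A trains driven by cytoplasmic dynein. The BBSome is a coat that carries membrane receptors on these trains, and the transition zone is the gate at the base of the cilium. In many cultured lines cilia form mainly after serum is withdrawn.

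The edited gene, KANK1, was listed at 3.63 FPKM in clone 114 and 3.43 FPKM in clone 174, against 4.49 FPKM in the control. FPKM are fragments counted per length of transcript and per depth of library, so levels of different genes can be compared per length. From the FPKM that single fragments add to long genes, depth was estimated at about 16800000 fragments in clone 114, 17000000 in clone 174 and 16300000 in the control. Of 7 markers fixed for the HEK293 culture, 6 reached 1 FPKM in some library. The 7 summed to 775, 765 and 987 FPKM in clone 114, clone 174 and the control. In the same order, VIM was at 445, 201 and 523 FPKM and NEFL at 26, 41.9 and 54.6 FPKM, both highest in the control. Highest in clone 174 were KRT8 (208, 364 and 273 FPKM), KRT18 (94.1, 152 and 134), LHX1 (1.62, 4.48 and 1.65) and PAX2 (0.298, 1.33 and 0.368). NEFM stayed at 0.33 FPKM or below. Markers of multiciliated cells summed to 2.65, 1.66 and 2.48 FPKM over 7 genes, and FOXJ1, the regulator of motile cilia, was at 0.0963 FPKM or below. Fibroblast markers summed to 3.39, 5.50 and 2.94 FPKM over 4 genes, 3 endothelial markers to 0.128 FPKM or less, and all 3 blood markers were listed at 0. Because whole cultures were measured, fewer cells expressing a gene and less of its RNA per cell cannot be told apart.

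All 45 genes averaged 1 FPKM or more, the level required for testing, so no member was lost to that filter. In the control they ranged from 1.61 FPKM for BBS12 to 40.0 FPKM for IFT43, with a median of 10.1 FPKM. The medians were 9.68 FPKM in clone 114 and 9.98 FPKM in clone 174. Subunits of 1 machine differed widely in level: control values spanned 4.25 to 34.5 FPKM within IFT-B, 5.54 to 40.0 within IFT-A and 2.96 to 30.01 within the transition zone. BBS12 was the lowest member in every library, at 2.04 FPKM in clone 114, 1.49 in clone 174 and 1.61 in the control. Its control value stands for an estimated 17 to 85 fragments, depending on the coding transcript. Other members rest on as few: IFT122 on 10 to 425 fragments in the control, and B9D2, with 1 coding transcript, on 57.

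**Figure D1:**
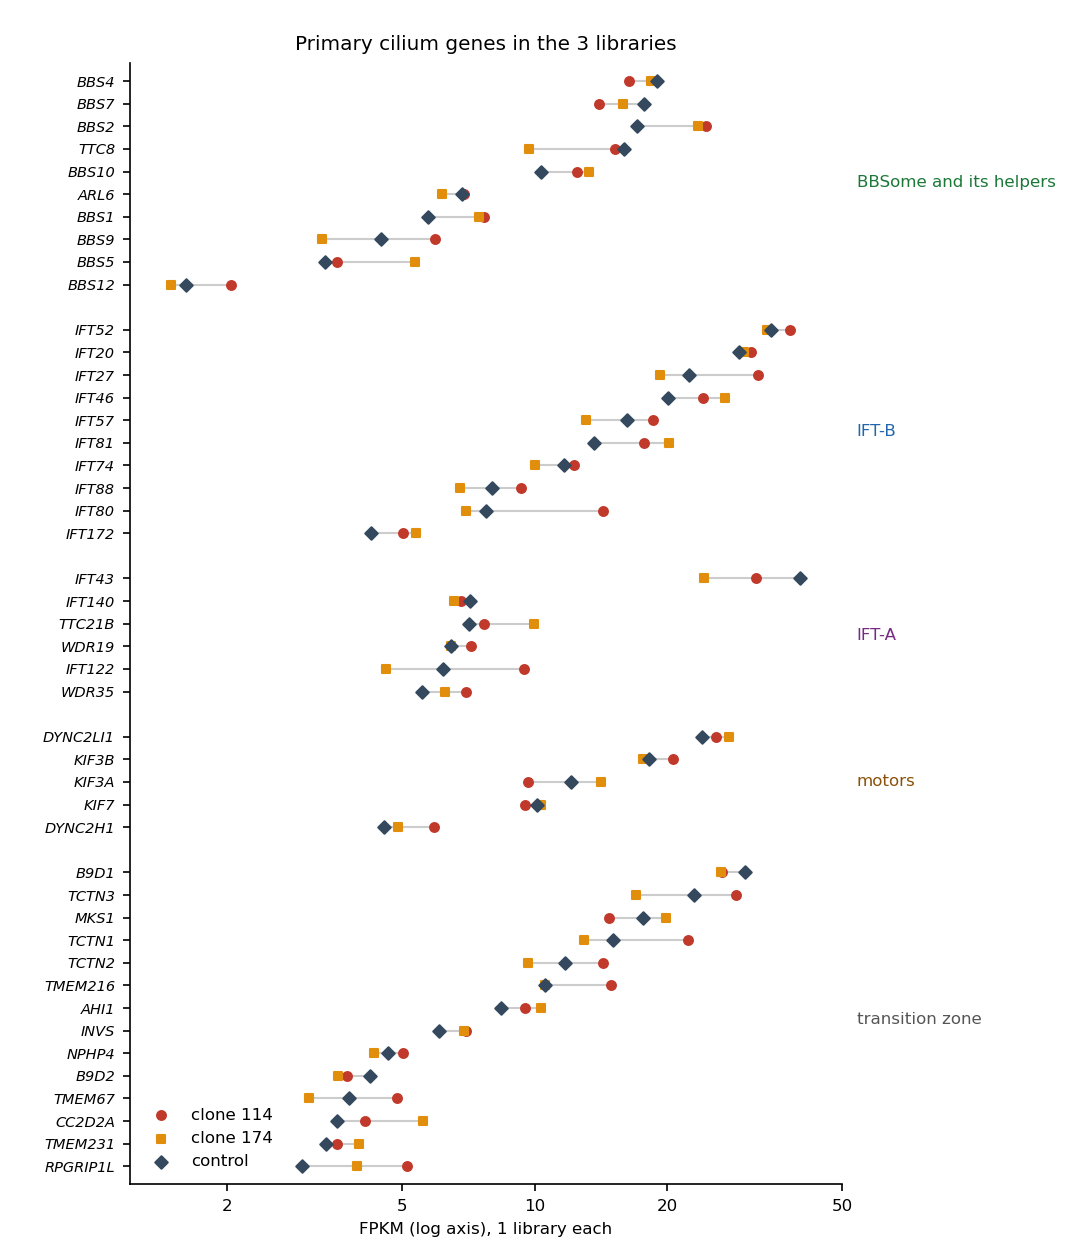
FPKM of the 45 primary cilium genes on a log axis, by group and in order of the control level within each group. Each gene has 1 point for clone 114 (circle), 1 for clone 174 (square) and 1 for the control (diamond), joined by a grey line. IFT43 is highest in the control at 40.0 FPKM, and BBS12 is lowest in every library. IFT80 and IFT122 have the widest splits, with clone 114 at 14.3 and 9.44 FPKM and clone 174 at 6.99 and 4.60 FPKM.

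The main comparison asked whether the partial KANK1-KO clones differed from the control. By limma on log2(FPKM + 1), fitted over 12577 genes with Benjamini-Hochberg adjustment, 0 of the 45 members passed an adjusted p under 0.05, in either direction. Over all genes tested, 0.0318% were called higher and 0.0477% lower. At an unadjusted p under 0.05 the count of members was still 0, against 0.827% of all genes higher and 0.906% lower. The lowest unadjusted p of a member was 0.166, for IFT43, and every member had an adjusted p of 1, here and under each other setting tried. With the SE of a member's difference at a median of 0.36 on the log2 scale, differences of the size seen here were smaller than those the fit mostly recovers. On simulated data of the same 12577 genes the fit found 19.8% of the simulated 2-fold differences and 80.2% of those of 4-fold. The simulation changed many genes at once and drew genes of similar level with a shared spread. Both can make a change easier to call than in these data, so these shares may be too high for the members. A member without a call is therefore not shown to be unaffected.

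Without a test, the members were more often above the control than all genes in clone 114, and about as often in clone 174. In clone 114, 35 of the 45 members (77.8%) stood above the control, against 49.2% of all genes tested, and 10 stood below it, against 50.7%. The median difference there was 0.17 (log2) for the members and -0.01 for all genes. In clone 174, 21 members (46.7%) stood above the control, against 45% of all genes, and 24 below it, against 54.9%. The medians there were -0.03 for the members and -0.05 for all genes. Bringing the libraries to equal summed FPKM moved the median of all genes to 0.17 in clone 114 and 0.04 in clone 174, and that of the members to 0.34 and 0.07, so the distance between members and all genes hardly moved. Both clones lay above the control for 18 members (40%), against 26.1% of all genes. Both lay below it for 7 members (15.6%), against 31.8% of all genes, and equal summed FPKM left 2 of these, BBS7 and IFT43. The 2 clones share the 1 control, so its own deviation enters both differences.

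A stricter reading asks for members whose smaller difference from the control, alike in direction in both clones, exceeded the gap between the clones; these are called set apart below. They were 11 higher (24.4%, against 11% of all genes) and 3 lower (6.67%, against 14.5% of all genes). The 11 higher were BBS1, BBS2, BBS10, IFT46, IFT81, IFT172, WDR35, DYNC2LI1, RPGRIP1L, INVS and AHI1, and all of them stayed set apart at equal summed FPKM, where 19.1% of all genes were set apart higher. Quantile normalization kept 9 of the 11, without IFT172 and AHI1. Subtracting the median of all genes kept 10, without DYNC2LI1. The 3 lower were IFT140, B9D1 and B9D2, which these 2 settings kept and of which equal summed FPKM left 0. Subtracting from each clone's difference the median of the gene's chromosome kept 7 of the 11 and 2 of the 3. In all 8 members (17.8%) were then set apart higher, against 13.5% of all genes, and 4 lower (8.89%), against 13.7%, so most of the distance from all genes was lost on the higher side. The 4 no longer set apart higher were IFT172, WDR35, DYNC2LI1 and INVS.

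**Figure D2:**
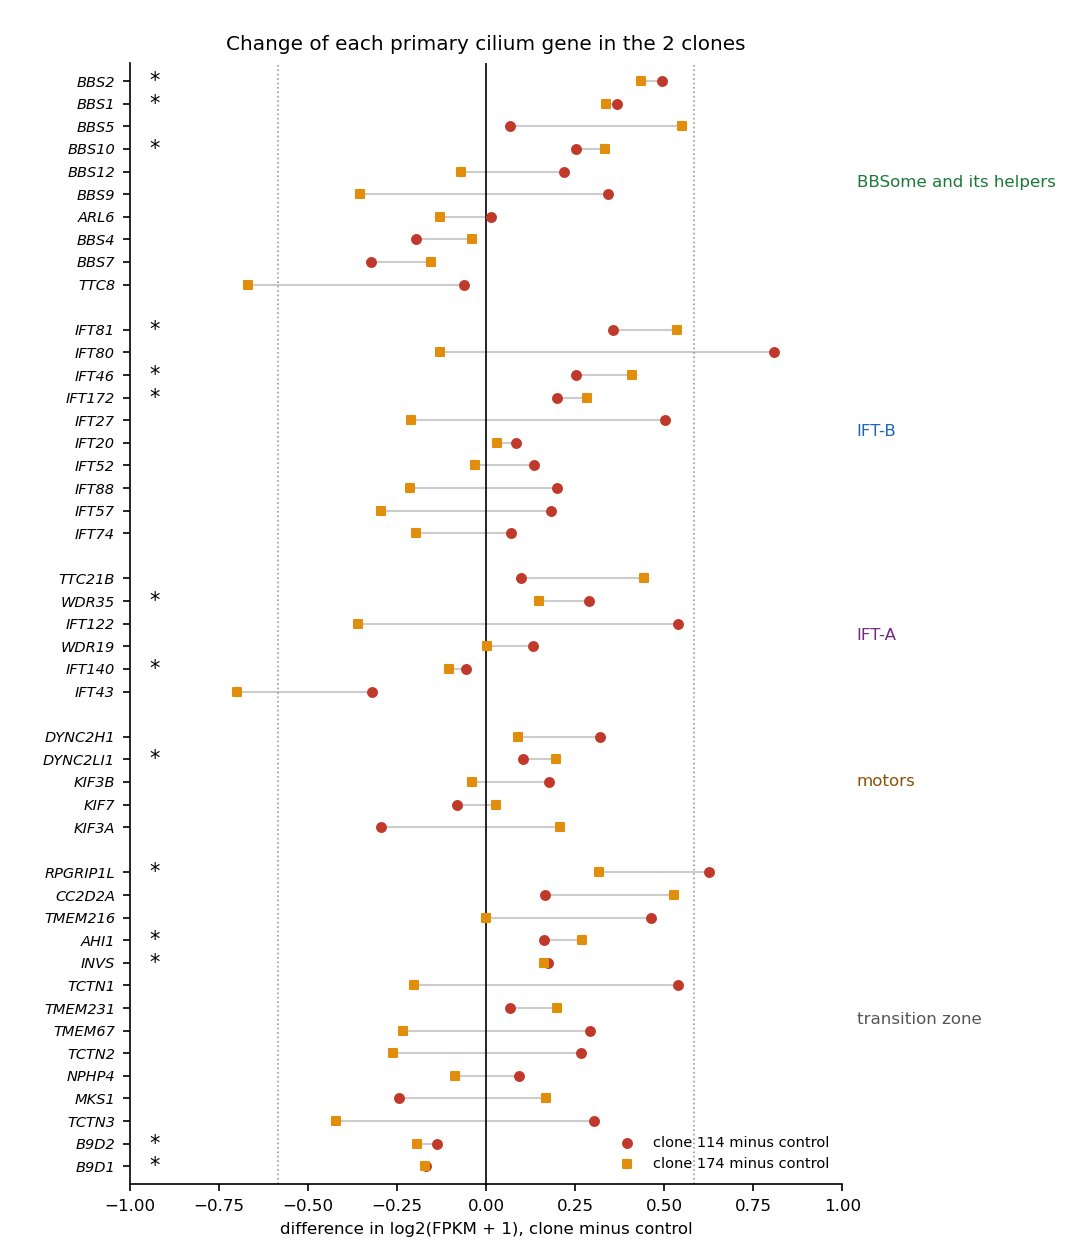
Difference in log2(FPKM + 1) between clone 114 and the control (circles) and between clone 174 and the control (squares) for each primary cilium gene, by group. Asterisks mark genes whose smaller difference exceeds the gap between the clones, and dotted lines mark 1.5-fold. Circles lie right of 0 for 35 of 45 genes and squares for 21, and 4 points pass a dotted line.

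**Figure D3:**
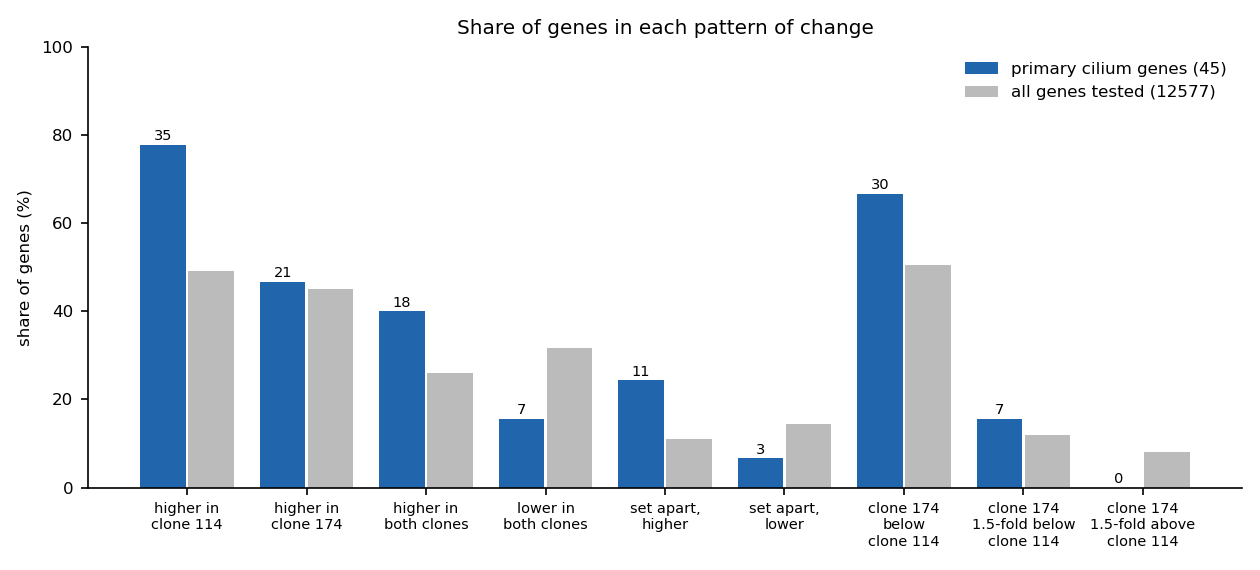
Share of the 45 primary cilium genes (blue, with counts) and of all 12577 genes tested (grey) in each pattern of change, on an axis from 0. The blue bar is the taller one for genes higher in clone 114 (35 genes), higher in both clones (18) and set apart higher (11), and the shorter one for genes lower in both clones (7).

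Within the BBSome, the core subunit BBS2 stood furthest above the control in the mean of the clones. It was at 24.4 FPKM in clone 114 and 23.4 FPKM in clone 174, against 17.1 FPKM in the control, and the clones lay closer to each other than to the control (log2 difference 0.46, SE 0.33, limma adjusted p = 1). BBS1, the subunit that binds the small GTPase ARL6, had 7.65 and 7.46 FPKM in clones 114 and 174, against 5.71 FPKM in the control. For BBS10, a chaperonin-like protein needed for BBSome assembly, values were 12.5 and 13.3 FPKM in clones 114 and 174, against 10.3 FPKM in the control. These 3 were the members of this group that were set apart. For BBS1 and BBS10 the log2 differences of 0.35 and 0.29 were smaller than their SE of 0.36 and 0.34. ARL6, which recruits the coat to membranes, was at 6.90 and 6.15 FPKM in clones 114 and 174 and 6.82 FPKM in the control, with the control inside the range of the clones.

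Other BBSome subunits were below the control or split between the clones. TTC8, also called BBS8, was at 15.2 FPKM in clone 114 and 9.68 FPKM in clone 174, against 16.0 FPKM in the control. Only clone 174 was far from the control there, by -0.67 on the log2 scale. BBS7 was lower in both clones, at 14.0 and 15.9 FPKM in clones 114 and 174 against 17.7 FPKM in the control. BBS4 was closer to the control, at 16.4 and 18.4 FPKM in clones 114 and 174 against 18.9 FPKM in the control. BBS9, another core subunit, was at 5.93 FPKM in clone 114 and 3.29 FPKM in clone 174, on either side of the control at 4.47 FPKM. BBS5, which has lipid-binding domains, stood out in clone 174 alone, at 5.35 FPKM, against 3.55 FPKM in clone 114 and 3.34 FPKM in the control. The median difference of the 10 genes was 0.14 (log2) in clone 114 and -0.05 in clone 174, and quantile normalization lowered the clone 114 value to 0.02.

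In IFT-B, the complex of outward transport, all 10 subunits were above the control in clone 114 and 4 of 10 were in clone 174. Over all genes tested, 49.2% were above it in clone 114 and 45% in clone 174. The median difference of the 10 was 0.20 in clone 114 and -0.08 in clone 174. All 10 stayed above the control in clone 114 under every scaling tried, among them equal summed FPKM, which put 68.7% of all genes above it. IFT81, which binds tubulin together with IFT74, was at 17.7 FPKM in clone 114 and 20.2 FPKM in clone 174, against 13.6 FPKM in the control (log2 difference 0.45, SE 0.33, limma adjusted p = 1). IFT81 was set apart, and its partner IFT74 was not: 12.3 and 10.0 FPKM in clones 114 and 174, against 11.6 FPKM in the control. IFT46, a core subunit, had 24.2 and 27.1 FPKM in clones 114 and 174, against 20.1 FPKM in the control. IFT172, the largest subunit, had 5.03 and 5.38 FPKM in clones 114 and 174, against 4.25 FPKM in the control.

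The remaining IFT-B subunits were near the control or differed between the clones. On the log2(FPKM + 1) scale IFT80 showed the widest split of all 45 members, with 14.3 FPKM in clone 114, 6.99 FPKM in clone 174 and 7.73 FPKM in the control. Clone 114 alone was high, and the clones differed by -0.93 (log2, clone 174 minus clone 114). Exons of IFT80 overlap those of SMC4, a condensin gene on the opposite strand, which was at 90.6, 45.4 and 51.6 FPKM in clone 114, clone 174 and the control. Whether the authors counted by strand is not given in the sources used here, and the part of SMC4 in the IFT80 values was not tested. IFT27, a small GTPase that helps the BBSome leave the cilium, was likewise high in clone 114 alone, at 32.1 FPKM, with 19.2 FPKM in clone 174 and 22.4 FPKM in the control. IFT57 was at 18.5 FPKM in clone 114, 13.0 FPKM in clone 174 and 16.2 FPKM in the control. The other 3, IFT20, IFT52 and IFT88, had control levels of 29.1, 34.5 and 7.99 FPKM and differed from them by 0.21 (log2) or less in either direction in each clone.

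IFT-A, the complex of return transport, held the member furthest below the control. IFT43, a peripheral subunit, was at 31.8 FPKM in clone 114 and 24.3 FPKM in clone 174, against 40.0 FPKM in the control (log2 difference -0.51, SE 0.34, limma adjusted p = 1). Both clones were below the control, but as reported clone 174 much further than clone 114. With chromosome medians subtracted the differences were -0.24 in clone 114 and -0.23 in clone 174, and IFT43 was then set apart lower. WDR35, also known as IFT121, had 6.99 and 6.25 FPKM in clones 114 and 174, against 5.54 FPKM in the control, and with chromosome medians subtracted its clone 174 difference turned to -0.09. TTC21B, or IFT139, was at 7.65 and 9.98 FPKM in clones 114 and 174, against 7.08 FPKM in the control, with clone 174 the higher of the clones. IFT122 split between the clones, at 9.44 FPKM in clone 114 and 4.60 FPKM in clone 174, with the control in between at 6.19 FPKM. MBD4, which overlaps IFT122 on the opposite strand, had the same order, at 14.5, 10.4 and 11.8 FPKM in clone 114, clone 174 and the control, and its part in the IFT122 values was not tested. IFT140 differed little, at 6.81 and 6.55 FPKM in clones 114 and 174 against 7.12 FPKM in the control, and at equal summed FPKM its mean difference turned to 0.05 above the control. WDR19, or IFT144, was at 7.16 and 6.47 FPKM in clones 114 and 174, against 6.45 FPKM in the control.

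Of the 5 motor genes, 2 were above the control in both clones and 3 split between the clones. Of all 12577 genes tested, 26.1% were above it in both clones and 5301 were neither above nor below it in both. DYNC2LI1, a light intermediate chain of the dynein that returns trains from the tip, was at 25.8 FPKM in clone 114 and 27.6 FPKM in clone 174, against 23.9 FPKM in the control. The heavy chain of that dynein, DYNC2H1, was at 5.91 and 4.89 FPKM in clones 114 and 174, against 4.53 FPKM in the control. The clones lay closer together for DYNC2LI1, which was the 1 motor gene set apart. With chromosome medians subtracted, clone 174 lay below the control for both, at -0.04 (log2) for DYNC2LI1 and -0.08 for DYNC2H1, and the median of the 5 motor genes in that clone was -0.03, against 0.09 as reported. KIF3A and KIF3B, which pair in the kinesin of outward transport, lay on opposite sides of the control in each clone as reported, but not in clone 174 at equal summed FPKM or with the median of all genes subtracted, nor in clone 114 with chromosome medians subtracted. KIF3A was at 9.68 FPKM in clone 114 and 14.1 FPKM in clone 174, on either side of the control at 12.1 FPKM. KIF3B was at 20.6 and 17.6 FPKM in clones 114 and 174, against 18.2 FPKM in the control. KIF7, the kinesin of the ciliary tip that acts in Hedgehog signalling, was at 9.52 and 10.3 FPKM in clones 114 and 174, against 10.1 FPKM in the control, within 0.08 (log2) of it in each clone.

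The transition zone, with 14 genes the largest group, had a median difference of 0.17 in clone 114 and -0.04 in clone 174. RPGRIP1L, a scaffold of the zone, had 5.12 FPKM in clone 114 and 3.94 FPKM in clone 174, against 2.96 FPKM in the control, a mean difference close to that of BBS2 (log2 difference 0.47, SE 0.40, limma adjusted p = 1). The RPGRIP1L values stand for an estimated 23 to 647 fragments in clone 114, 18 to 504 in clone 174 and 13 to 363 in the control, depending on the transcript. AHI1, the jouberin gene, was at 9.51 and 10.3 FPKM in clones 114 and 174, against 8.39 FPKM in the control. INVS, which encodes inversin of the compartment just beyond the zone, had 6.96 and 6.89 FPKM in clones 114 and 174, against 6.05 FPKM in the control. In these 3 genes both clones were above the control, and in INVS they were almost equal. CC2D2A was higher mainly in clone 174, at 5.57 FPKM, with 4.11 FPKM in clone 114 and 3.56 FPKM in the control.

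The B9 domain family of the transition zone held the 2 genes, of the 14 in this group, that were below the control in both clones. Of all genes tested, 31.8% were below it in both. B9D1 was at 26.6 FPKM in clone 114 and 26.5 FPKM in clone 174, against 30.01 FPKM in the control. B9D2 was at 3.75 and 3.56 FPKM in clones 114 and 174, against 4.22 FPKM in the control. Both genes were below the control by a similar small amount in each clone (log2 difference -0.17 for each, SE 0.33 for B9D1 and 0.40 for B9D2, limma adjusted p = 1), although at equal summed FPKM clone 114 stood 0.02 above the control for either gene, and with chromosome medians subtracted 0.01 above it for B9D1. MKS1, the third member of the family, was lower only in clone 114, at 14.7 FPKM, with 19.9 FPKM in clone 174 and 17.6 FPKM in the control.

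The 3 tectonic genes TCTN1, TCTN2 and TCTN3, which encode related proteins of the transition zone, were above the control in clone 114 and below it in clone 174 under every scaling tried. TCTN1 was at 22.3 FPKM in clone 114 and 12.9 FPKM in clone 174, with the control at 15.0 FPKM. HVCN1, which overlaps TCTN1 on the opposite strand, was lower in level, at 4.85, 3.504 and 1.72 FPKM in clone 114, clone 174 and the control, and highest in clone 114 as well, and its part in the TCTN1 values was not tested. TCTN2 was at 14.3 FPKM in clone 114 and 9.63 FPKM in clone 174, with the control at 11.7 FPKM. TCTN3 was at 28.7 FPKM in clone 114 and 16.9 FPKM in clone 174, with the control at 23.0 FPKM. The control thus lay inside the range of the clones for each of them. TMEM67, the meckelin gene, had the same order, with 4.86, 3.07 and 3.78 FPKM in clone 114, clone 174 and the control. TMEM216, a membrane protein gene, was higher only in clone 114, at 14.9 FPKM, against 10.5 FPKM in both clone 174 and the control. Of the last 2 genes, TMEM231 was within 0.20 (log2) of its control level of 3.35 FPKM in each clone and NPHP4 within 0.09 of its level of 4.64 FPKM.

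Each clone by itself was compared with the control without a test, since 1 library a group allows none. In clone 114, 2 members were at least 1.5-fold higher on the log2(FPKM + 1) scale, IFT80 and RPGRIP1L, which is 4.44% against 7.09% of all genes tested, and 0 were 1.5-fold lower, against 6.07%. In clone 174, 0 members were 1.5-fold higher, against 5.79%, and 2 were 1.5-fold lower, TTC8 and IFT43, against 7.28% of all genes. Such counts move with the scaling: at equal summed FPKM, 7 members were 1.5-fold higher in clone 114 (15.6%, against 12.7% of all genes), and in clone 174 there were 3 higher (6.67%, against 8.44%) and 1 lower (2.22%, against 4.84%), without TTC8. As reported, each of these shares of the members was below that of all genes.

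The clones were also compared with each other. Clone 174 was below clone 114 for 30 of 45 members (66.7%), against 50.6% of all genes, and above it for 15, against 49.3%, with a median difference of -0.13 (log2) for the members and -0.01 for all genes. A difference of 1.5-fold was reached by 7 members, all lower in clone 174: BBS9, TTC8, IFT27, IFT80, IFT122, TCTN1 and TCTN3. This is 15.6% of the members, against 11.9% of all genes 1.5-fold lower, and 0 members were 1.5-fold higher, against 8.08%. This comparison does not involve the control and has 1 library on each side, so it has no test.

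Several of these differences had the direction and much of the size of their chromosome's median. Median differences between the clones ranged from -0.62 for the 601 tested genes of chromosome 7 to 0.26 for the 763 of chromosome 17. For the subtraction, each clone's difference from the control lost the median of that clone for the gene's chromosome, and the clones were then compared. BBS9, the 1 member on chromosome 7, differed by -0.69 between the clones, and by -0.08 after the medians of 0.38 in clone 114 and -0.23 in clone 174 were subtracted. TTC8 and IFT43, the 2 members on chromosome 14, differed from the control in clone 174 by -0.67 and -0.70, where the 420 tested genes of that chromosome had a median of -0.47. After subtraction their clone 174 differences were -0.20 for TTC8 and -0.23 for IFT43. On chromosome 3, with medians of 0.15 in clone 114 and -0.18 in clone 174, IFT57, IFT80, IFT122 and ARL6 were all lower in clone 174, and IFT80 kept -0.61 and IFT122 -0.57 after subtraction. TCTN1 and TCTN2 went against their chromosome: the medians of chromosome 12 were 0.03 in clone 114 and 0.21 in clone 174, and their differences of -0.74 and -0.53 widened to -0.92 and -0.71. With chromosome medians subtracted, 3 members were past 1.5-fold between the clones, IFT80, TCTN1 and TCTN2, all lower in clone 174 (6.67%, against 8.56% of all genes). Subtracting the chromosome's median difference between the clones directly, an alternative chosen after seeing the data, left 2, TCTN1 and TCTN2, with IFT80 at -0.58, just short of 1.5-fold. After the subtraction 36 of 45 members stood above the control in clone 114, with a median of 0.18, against 50% of all genes. Quantile normalization gave 32 members, with a median of 0.13, against 49.6% of all genes. The part of chromosome differences in these counts was not tested.

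**Figure D4:**
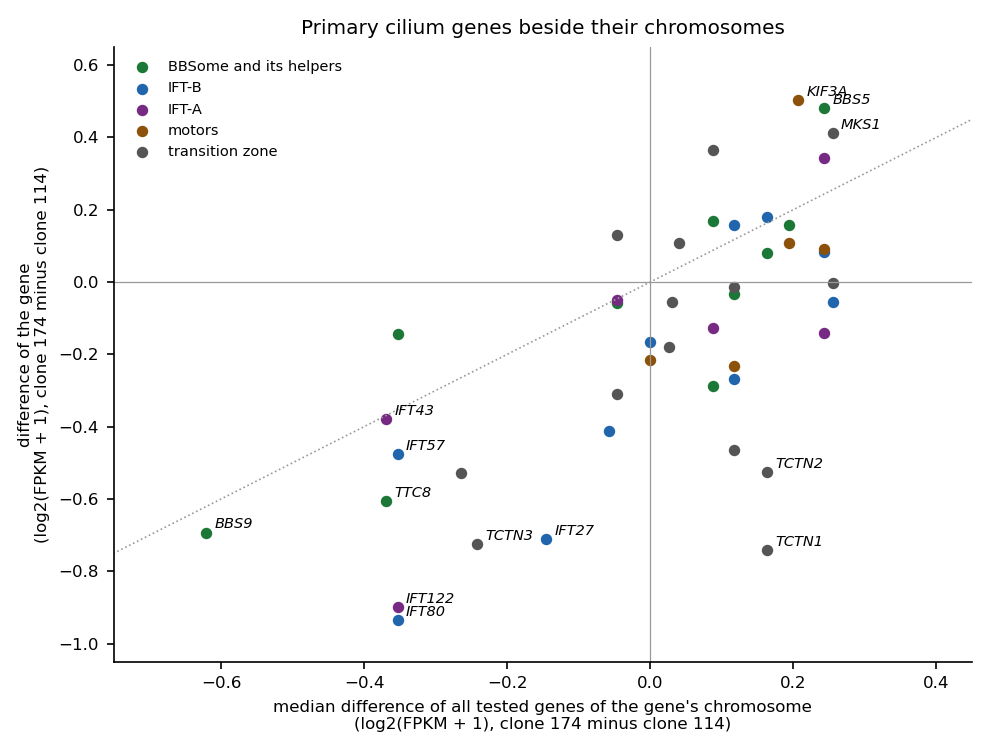
Difference in log2(FPKM + 1) between clone 174 and clone 114 for each of the 45 primary cilium genes (vertical) against the median difference of all tested genes of its chromosome (horizontal), coloured by group, with a dotted line where both are equal. BBS9, TTC8 and IFT43 have chromosomes that are lower in clone 174, whereas TCTN1 and TCTN2 lie far below the line on a chromosome that is higher in clone 174.

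Promoter sequence was another feature that the choice of members did not use. RFX transcription factors bind the X-box, a motif of 2 facing arms found before many cilium genes from worms to humans. RefSeq windows (GRCh38.p14) were available for 41 of the 45 members, not for BBS9, TMEM67, TCTN2 and WDR35. The 250 bases before each start were searched on both strands. The arm GTTGCC was found before 14 of the 41 genes (34.1%), against 12.3% of all 27305 genes with a window, and against 13.9% of the tested genes with one. The looser GTTNCC, which includes it, was found before 30 of 41 members (73.2%), against 44.6% of all genes. A pair of arms, GTTNCC and GGNAAC with 0 to 3 bases between them, was found before 2 members, ARL6 and TCTN3 (4.88%), against 0.798% of all genes.

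For members with GTTGCC, expression was described without a test: their median difference was 0.09 in clone 114 and -0.02 in clone 174 (14 genes), against 0.16 and 0.00 for the 27 members without it. For all tested genes with a window the medians were -0.01 and -0.06 with GTTGCC, against -0.01 and -0.04 without it. The matches are shown only for members named above as set apart or as 1.5-fold different between the clones. Of these, BBS1, BBS2, IFT80, IFT81, IFT172, IFT140, RPGRIP1L, INVS, AHI1, B9D1 and TCTN1 had no match, and BBS9 and WDR35 no window. Matches before BBS5, ARL6, IFT74, DYNC2H1, TMEM231 and MKS1 are not shown. A match is a description of letters, not a bound site. Each stretch, credited to RefSeq, is read 5′ to 3′ on the strand of its gene and ends at or before the gene start, with GTTGCC or its reverse complement GGCAAC in capitals.
IFT46: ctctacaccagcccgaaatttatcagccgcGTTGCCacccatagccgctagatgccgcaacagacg
BBS10: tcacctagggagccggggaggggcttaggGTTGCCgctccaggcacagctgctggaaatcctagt
DYNC2LI1: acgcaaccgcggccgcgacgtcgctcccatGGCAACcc
B9D2: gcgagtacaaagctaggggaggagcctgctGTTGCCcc
TTC8: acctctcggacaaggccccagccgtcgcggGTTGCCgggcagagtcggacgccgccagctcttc
IFT27: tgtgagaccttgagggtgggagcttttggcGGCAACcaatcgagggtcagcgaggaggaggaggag
IFT122: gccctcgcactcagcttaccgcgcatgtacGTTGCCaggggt
TCTN3: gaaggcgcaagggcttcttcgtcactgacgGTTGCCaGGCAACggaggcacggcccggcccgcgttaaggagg
In GRCh38.p14 the stretches are IFT46 at chr11:118566092-118566157 on the minus strand, BBS10 at chr12:76348601-76348665 on the minus strand, DYNC2LI1 at chr2:43774001-43774038 on the plus strand and B9D2 at chr19:41364150-41364187 on the minus strand. The others are TTC8 at chr14:88824587-88824650 on the plus strand, IFT27 at chr22:36776125-36776190 on the minus strand, IFT122 at chr3:129440182-129440223 on the plus strand and TCTN3 at chr10:95694100-95694172 on the minus strand. The expression values were made on hg19 and no coordinate was compared between the builds. In TCTN3 both arms face each other with 1 base between them, whereas DYNC2LI1 and B9D2 carry theirs 2 bases before the start.

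The rest of the cilium machinery was described from lists of known components. Of another 28 subunits of the same machines 27 were tested, of which 18 stood above the control in clone 114 and 13 did so in clone 174, with medians of 0.16 and -0.04, close to those of the members. Over all genes tested, 49.2% stood above the control in clone 114 and 45% in clone 174. Among them TTC30A, an IFT-B subunit, was at 5.29 and 4.85 FPKM in clones 114 and 174, against 3.52 FPKM in the control, but its near-identical copy TTC30B shares sequence with it, so the split of fragments between them is uncertain. CEP290, a transition zone protein, was at 8.41 and 8.47 FPKM in clones 114 and 174, against 6.68 FPKM in the control, with the clones almost equal. By limma 0 of the 27 were called.

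Of 15 tested genes of ciliary membrane cargo and its targeting, 8 were above the control in clone 114, with a median of 0.09, and 4 in clone 174, with a median of -0.21. Equal summed FPKM brought these counts to 12 and 6, and the shares of all genes from 49.2% and 45% to 68.7% and 54.8%. GPR161, a ciliary receptor that restrains Hedgehog signalling, was at 6.23 and 7.57 FPKM in clones 114 and 174, against 4.36 FPKM in the control. TUB, the tubby protein gene, went the other way, at 10.9 and 13.2 FPKM in clones 114 and 174 against 17.2 FPKM in the control. Of 26 genes of cilium assembly and disassembly, all tested, 11 were above the control in both clones and 3 below it, with medians of 0.08 in clone 114 and 0.09 in clone 174. Of all genes tested, 26.1% were above the control in both clones and 31.8% below it. KIF2A, a kinesin that takes microtubules apart, was at 32.2 and 28.2 FPKM in clones 114 and 174, against 44.7 FPKM in the control. NEDD9, a scaffold that activates the kinase AURKA when cilia are resorbed, was at 1.86 and 2.68 FPKM in clones 114 and 174, against 1.19 FPKM in the control. None of the 41 tested genes of these 2 lists was called by limma.

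Among 10 genes of RFX factors and ciliary transcription, 6 were tested, with 2 above and 3 below the control in both clones. Over all genes tested, 26.1% were above it in both clones and 31.8% below it. At equal summed FPKM 5 of the 6 were above the control in each clone. That scaling put 68.7% of all genes above the control in clone 114 and 54.8% in clone 174. RFX1 was at 4.16 and 3.15 FPKM in clones 114 and 174, against 2.59 FPKM in the control, and RFX2 at 1.40 and 1.28 FPKM in clones 114 and 174, against 1.91 FPKM in the control. RFX4 was listed at 0 in all 3 libraries. In the Hedgehog pathway, whose signal depends on the cilium, 10 of 17 genes were tested, of which 4 were above the control in both clones and 0 below. The shares of all genes as reported are those given above for the RFX list. The largest differences shared by the clones there were EVC, a protein of the ciliary base, at 6.48 and 7.53 FPKM in clones 114 and 174 against 5.55 FPKM in the control, and the co-receptor gene CDON at 6.81 and 6.13 FPKM against 5.23 FPKM. The direct target GLI1 was below the level for testing, at 0.14 FPKM in clone 114, 0.433 in clone 174 and 0.451 in the control. Motile cilium genes were mostly below that level, with 2 of 17 tested: CCDC40 at 0.84 and 0.828 FPKM in clones 114 and 174 against 1.66 FPKM in the control, and MCIDAS at 1.40 and 1.05 FPKM against 1.77 FPKM. By limma 0 genes of these 3 lists were called.

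**Figure D5:**
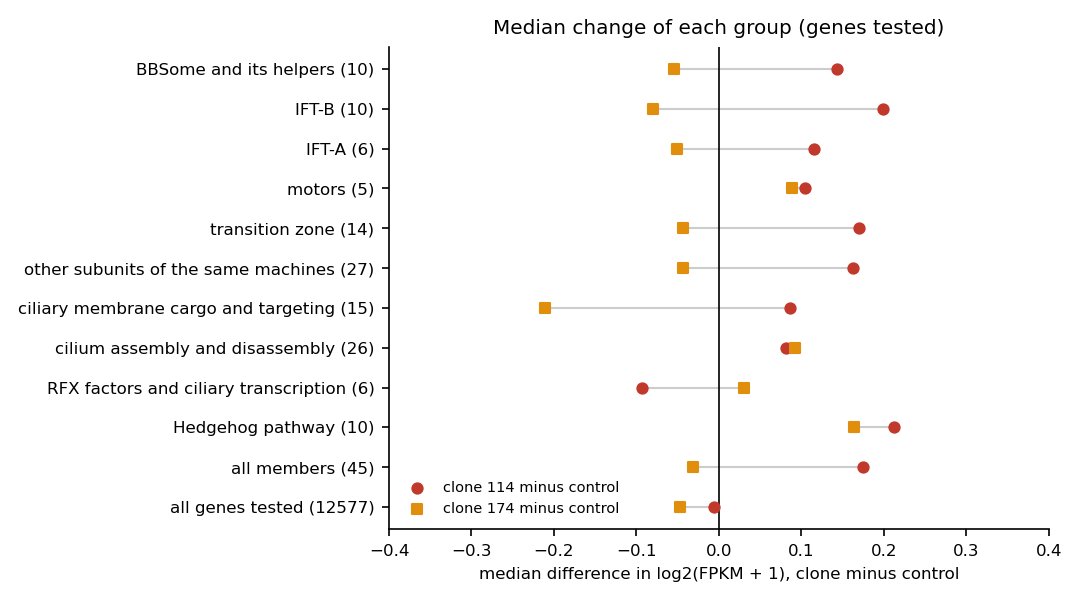
Median difference in log2(FPKM + 1) from the control for clone 114 (circles) and clone 174 (squares) in each group of cilium genes, with the number of genes tested in brackets, beside all members and all 12577 genes tested. The circles of the 5 member groups lie between 0.10 and 0.20, against -0.01 for all genes, and their squares lie close to the -0.05 of all genes except for the motors at 0.09.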

How the data were processed

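The values are FPKM as deposited by the authors, in a table for each of the 3 libraries. The submitters' processing notes name the tools Cuffdiff 2.2.1, HISAT2 2.2.1 and cutadapt 2.10, and hg19 as the build. Settings, annotation and strand: not given in the sources used here. FPKM are not counts, so no count model was used. Rows with a date for a symbol (28) were left out. Depth was estimated from low genes with a single transcript of 1500 bases or longer, with an assumed fragment length of 200 bases; 81.4% to 85.5% of low values lay within 0.2 of a whole fragment. If FPKM were rescaled between libraries, these are relative depths.

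The 12577 genes averaging 1 FPKM or more were fitted on log2(FPKM + 1), which understates changes of low genes, with limma 3.58.1 in R 4.3.3 (eBayes with a trend, 1 residual and 8.80 prior degrees of freedom, Benjamini-Hochberg adjustment), tested on simulated data. The single control is thus assumed to vary like a clone. Nothing says the clones were separate cultures beyond their numbers, so p-values measure only the spread between libraries. An exact permutation test of 1 against 2 libraries cannot go below p = 0.333. Chromosomes came from RefSeq by symbol (98.8% of tested genes matched) and transcripts from GENCODE 29. Exons of 14 members overlap a gene on the opposite strand. Besides IFT80, IFT122 and TCTN1 they are BBS1, IFT20, IFT74, IFT172, IFT140, TTC21B, KIF7, MKS1, NPHP4, B9D1 and B9D2. Some overlapping genes were above the member in level. ZDHHC24 at BBS1 had 15.3, 16.3 and 15.1 FPKM in clone 114, clone 174 and the control. TELO2 at IFT140 had 31.1, 19.8 and 30.1 FPKM. Their part in the members' values was not tested. The members, lists and tests were chosen with earlier results of these data known. Named were members set apart from the control, the 2 highest and 2 lowest of each complex, the 3 largest differences between the clones, and up to 2 genes per other list; the remaining members were added so that all are accounted for. The authors' deposited tables of log2 ratios were not used. Alternatives changed the pseudocount, the filter, the scaling, the trend, the chromosome medians and the clones used.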

Additional observations from a re-analysis of the deposited data

How the results depend on the processing

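No member was called under any of the 8 alternative fits, and the median difference of the members, 0.07, lay between 0.07 and 0.20 under the alternatives other than leaving out a clone, and at -0.03 with clone 174 alone and 0.17 with clone 114 alone. With 1 clone the count of members above the control was 21 (clone 174) or 35 (clone 114), and below it 24 or 10; a limma test then has no residual degree of freedom and was not run. Equal summed FPKM gave 2 members lower in both clones, 7 past 1.5-fold in clone 114 and 4 in clone 174. For clone 114, 1 member passed 1.5-fold among genes averaging 5 FPKM or more and 1 after quantile normalization. For clone 174, 4 passed with a pseudocount of 0.1 FPKM and 1 with chromosome medians subtracted, which also left 3 between the clones; subtracting the chromosome's median between the clones, chosen after seeing the data, left 2. Small differences turned round at equal summed FPKM, which put the median of all genes at 0.114: IFT57 to 0.086, IFT74 to 0.076, IFT140 to 0.052, KIF3A to 0.096 and KIF7 to 0.11. With chromosome medians subtracted KIF3A turned to 0.252 and KIF7 to 0.059. With either clone left out, values ranged from -0.294 to 0.181 for IFT57, -0.197 to 0.071 for IFT74, -0.128 to 0.807 for IFT80, -0.36 to 0.538 for IFT122, -0.294 to 0.209 for KIF3A, -0.081 to 0.027 for KIF7 and -0.203 to 0.539 for TCTN1. The cause was not tested. No paired analysis was possible because the control has 1 library, and the table columns carry the same number for all 3 libraries. By the mean of the clones RPGRIP1L and BBS2 changed places under some scalings, with RPGRIP1L at 0.421 and BBS2 at 0.489 after quantile normalization. Depth limits IFT122, BBS1, CC2D2A and RPGRIP1L most if reads come from the shortest transcripts, and B9D2 if from the longest.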
